A study of Mus musculus with 2 samples.

Results

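Tac1, Penk, Pnoc and Trh are 4 of the 500 genes on the probe panel, taken by name as precursors of neuropeptides. They were followed in 2 coronal sections of the mouse brain at E16.5, each 10 µm thick, by MERFISH, an imaging assay that decodes RNA molecules one by one from their fluorescence over repeated hybridization rounds. The control section came from Sst-Cre/tdTomato mice, and the KO section from Sst-Cre/tdTomato/Dnmt1 loxP2 mice. Both genotypes carry the Cre recombinase, made by cells that express somatostatin (Sst), and the red reporter tdTomato. In the KO, Cre also removes a piece of Dnmt1, which encodes a DNA methyltransferase, so that the deletion is limited to cells with a history of Sst expression. Each genotype is 1 section from 1 imaging run, so genotype, run, animal and plane of section cannot be told apart, and no difference below has a replicate check.

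Neuropeptides are cut from larger precursor proteins, packed into dense-core vesicles and released to act on G protein-coupled receptors. Tac1 encodes the precursor of substance P and neurokinin A, and in the adult striatum it marks neurons of the direct pathway, which also express the dopamine receptor Drd1. Penk encodes the precursor of the enkephalins, which act on opioid receptors, and in the adult striatum it marks neurons of the indirect pathway, which express Drd2 and the adenosine receptor Adora2a. Pnoc encodes the precursor of nociceptin, the ligand of the receptor Oprl1. Trh encodes the precursor of thyrotropin-releasing hormone, best known from neurons of the hypothalamus. Penk is also known from cells outside the nervous system, among them mesenchymal cells of the embryo.

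In the GRCm39 annotation Tac1 lies on chromosome 6 from 7554120 to 7565834 on the plus strand. Penk lies on chromosome 4 from 4132722 to 4141856, Pnoc on chromosome 14 from 65638122 to 65663196 and Trh on chromosome 6 from 92219021 to 92221631, these 3 on the minus strand. The transcript models that the probes were assigned to have 7 exons for Tac1, 2 for Penk, 4 for Pnoc and 3 for Trh.

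The control section held 108533 segmented cells with a median of 20 panel transcripts, and the KO section 110004 cells with a median of 101. Cells with at least 20 panel transcripts were used, which left 55231 control and 101250 KO cells. Levels are given as counts per 1000000 panel transcripts of the cells concerned (CPM), with exact Poisson 95% intervals that cover counting error only. False decoding was read from 50 blank barcodes that match no probe. Their median was 82.1 CPM and their highest value 262 CPM for the control, against 87.5 and 239.9 CPM for the KO section.

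Over the whole section, Penk and Pnoc were the more abundant of the precursors. Penk was at 635 CPM in the control section (interval 603 to 668, 1473 transcripts) and at 812 CPM in the KO section (797 to 828, 10871 transcripts). Pnoc was at 534 CPM (505 to 565, 1239 transcripts) and 710.1 CPM (696 to 725, 9506 transcripts). Both lay above every blank barcode in both sections. Trh was at 191 CPM in the control (174 to 210, 444 transcripts) and 254 CPM in the KO section (245 to 263, 3399 transcripts). Tac1 was at 99.6 CPM in the control (87.1 to 113, 231 transcripts) and 280.3 CPM in the KO section (271 to 289.5, 3753 transcripts). In the control section 18 of the 50 blanks reached the level of Tac1 and 4 reached that of Trh, while in the KO section none did for either gene. A whole-section level of Tac1 in the control is therefore within the range of false decoding, and its position and cell type carry the information.

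Single cells held few molecules of each gene. The highest count in a control cell was 2 for Tac1, 8 for Penk, 4 for Pnoc and 13 for Trh. In KO cells it was 10, 22, 8 and 18 in the same order. Of all decoded molecules of these genes, between 9.85% and 18.3% lay outside segmented cells, against 18.6% (control) and 18.4% (KO) of all panel molecules.

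**Figure D1:**
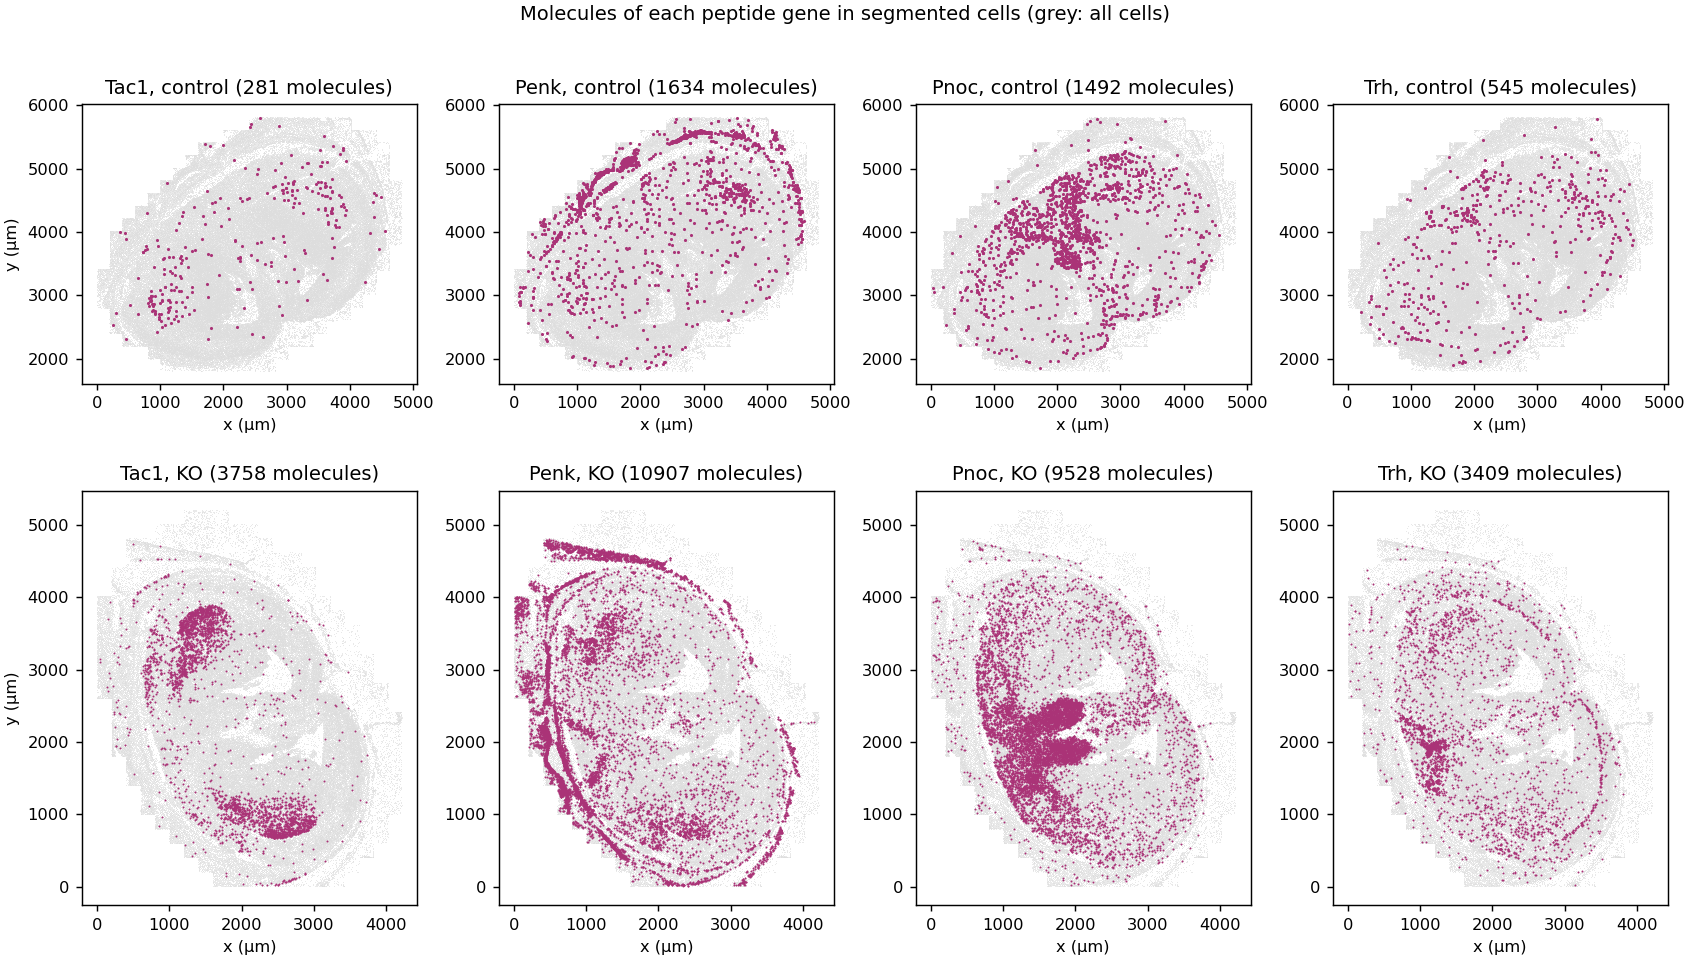
Molecules of each gene inside segmented cells (purple) over all cells (grey), with both axes in µm and 1 row per section. Tac1 gathers in the paired striatal masses, Penk also outlines the brain, Pnoc fills paired lobes near the midline and the tissue beside them, and Trh forms a patch at the ventral midline and a thin band in the cortex of the KO section.

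The maps showed 4 different patterns. To count them, the section was divided into 25 µm bins named after the marker list with the highest smoothed share of transcripts relative to its mean over the section. The lists stood for pallial (developing cortex), striatal, other subcortical, germinal and non-neural tissue. Genes of these lists also lead clusters described below, among them Rxrg, Irs4, Calcr, Baiap3, Shisa3, Col14a1, Efemp1, Dcn and Hhip. Place and cluster are therefore not independent of each other. At the edge of the KO section some tissue outside the brain was named other subcortical or germinal by this rule.

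Tac1 was concentrated in the striatal place, at 372 CPM in the control and 1128 CPM in the KO section. This place held 56.7% of the control and 80.6% of the KO transcripts of Tac1, with 17.4% and 21.1% of the cells. In the pallial place Tac1 was at 24.0 and 30.3 CPM, below the median blank there (83.9 and 91.7 CPM). Penk had its highest level in the non-neural place, at 1599 CPM in the control and 2582 CPM in the KO section, and its next highest in the striatal place, at 729 and 748 CPM. The non-neural place held 62.1% of control and 48.6% of KO Penk transcripts. In the pallial place Penk was at 122 and 139 CPM, within the range of the blanks.

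Pnoc was highest in the other subcortical place, at 1465 CPM in the control and 2129 CPM in the KO section, which held 61.9% and 63.5% of its transcripts. In the non-neural place it was at 52.5 and 111 CPM. Trh was also highest in the other subcortical place, at 353 and 554 CPM, with 41.7% and 46.2% of its transcripts. It was at 206 CPM in the control and 207 CPM in the KO section in the pallial place, and at 298 and 274 CPM in the striatal place. In the same places Pnoc was at 319 and 371 CPM (pallial) and 508 and 438 CPM (striatal). Of these levels of Trh, the one in the other subcortical place of the KO section was above the highest blank of its place (333 CPM), and the others were within the range of the blanks.

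**Figure D2:**
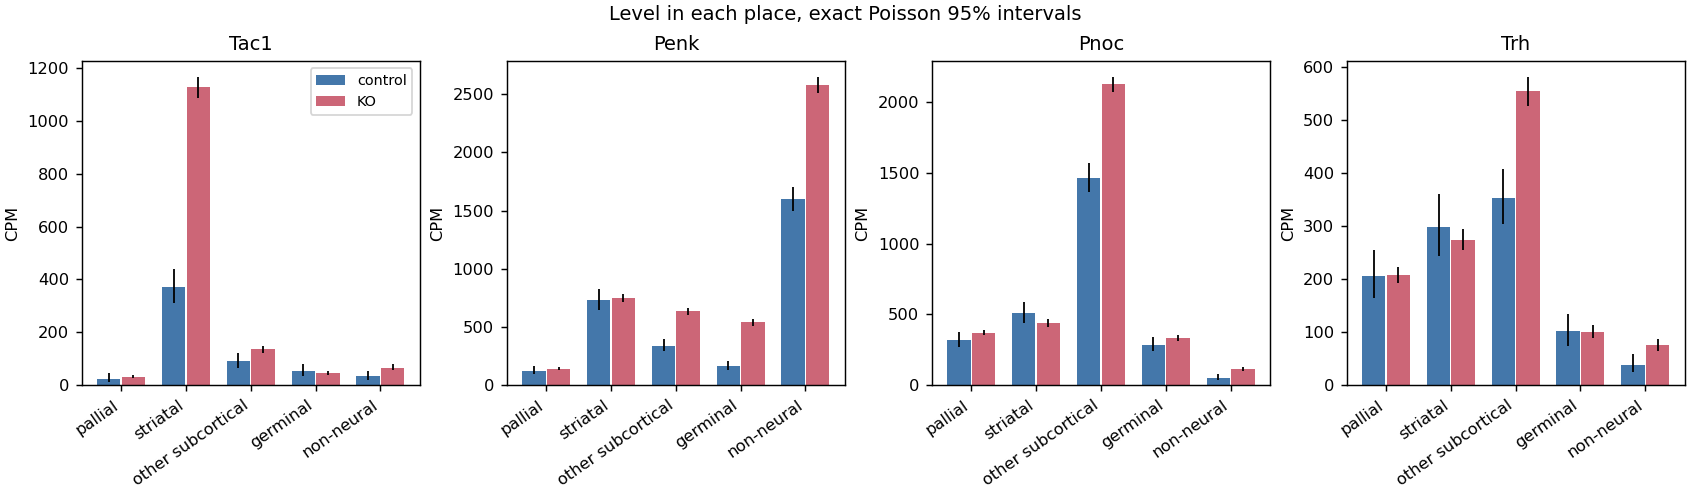
Level (CPM, linear axis) of each gene in the 5 places of the control (blue) and KO (red) section, with exact Poisson 95% intervals. Tac1 peaks in the striatal place, Penk in the non-neural place, and Pnoc and Trh in the other subcortical place.

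Cells were clustered on the 496 other panel genes, so that the peptide genes did not shape the clusters, which gave 25 clusters. To be called "X-like", a cluster needed 3 or more markers of that class among its top 10 genes, and 13 clusters stayed unnamed. The cluster with Rxrg and Oprm1 among its 3 leading genes had 7 markers of direct-pathway striatal projection neurons in its top 10, Drd1 among them, but also Drd2. It is called the striatal cluster here. It held 5635 control and 11514 KO cells, of which 95.95% and 98.2% lay in the striatal place. The list of that place shares Drd1, Drd2, Rxrg, Gpr149, Chrm4 and Ebf1 with the top 10 genes of the cluster. These shares were therefore partly fixed in advance.

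Tac1 was highest in the striatal cluster in both sections. Its level there was 476 CPM in the control (388 to 578, 102 transcripts) and 1676 CPM in the KO section (1612 to 1743, 2563 transcripts). All other cells together were at 61.3 and 100.4 CPM, a fold of 7.77 and 16.7. These levels of the other cells were within the range of the blanks (median 82.1 and 87.5 CPM), so the size of both folds is uncertain. The striatal cluster held 44.2% of control and 68.3% of KO Tac1 transcripts. Next in order was an unnamed cluster with Chat and Slc17a8, known from cholinergic neurons, among its leading genes, at 361 CPM in the control and 808 CPM in the KO section. The control intervals of these clusters overlapped, and the highest blank in the cholinergic-gene cluster of the control was at 767 CPM. The cluster led by Sst, Elfn1 and Sertm1, called MGE interneuron-like although 72.3% of its control cells lay in the other subcortical place, followed in the KO section at 413 CPM, and stood at 125 CPM in the control, both within the range of the blanks (up to 416 and 380 CPM). In deep-layer and upper-layer projection neuron-like cells Tac1 lay between 11.8 and 21.7 CPM, below the median blank of the section.

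At a finer resolution of 1.2 the striatal cells came apart into clusters that differed in Tac1. A cluster with Rxrg and Brs3 among its leading genes was at 698 CPM of Tac1 in the control and 2109 CPM in the KO section. One led by Ebf1, Oprm1 and Foxp1 was at 289 and 822 CPM. One led by Drd2, Pou3f1 and Adora2a, called indirect-pathway-like, was at 117 and 87.7 CPM, a level that blank barcodes also reached. These clusters were made with the markers of both pathways, so they describe how Tac1 is distributed and are no test.

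Penk was found both in neurons and in clusters poor in neuronal genes, and most of its transcripts lay in the latter. Mesenchymal- or meningeal-like cells, a pair of clusters led by Shisa3, Col14a1 and Crabp2 and by Hdc, Efemp1 and Dcn, were at 1845 CPM in the control (1704 to 1994, 6065 cells) and 3519 CPM in the KO section (3418 to 3622, 8854 cells). They made up 11.0% and 8.75% of cells and held 42.8% and 42.3% of Penk transcripts. All other cells were at 426 and 519 CPM. The first of the pair was higher than the second in both sections, at 2484 against 1111 CPM in the control and 4482 against 2664 CPM in the KO section.

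Other clusters poor in neuronal genes also held Penk. The unnamed cluster led by Hhip, Creb3l1 and Npnt was at 1321 and 1531 CPM. That led by Col9a2, Hapln1 and Cspg4, genes of cartilage matrix among them, was at 2364 CPM in 172 control cells and 2614 CPM in 409 KO cells. The cluster led by Lama3, Aldh1a1 and Ccdc153 had 0 Penk transcripts in 119 control cells, which allows up to 752 CPM, and 2639 CPM in 575 KO cells. Taking together the clusters in which 5 genes of GABAergic and glutamatergic neurons stayed under 25% of the section's level in both sections, and leaving out radial glia-like cells, Penk was at 1413 CPM in the control and 2359 CPM in the KO section. These clusters held 62.0% and 60.8% of all Penk transcripts. The same clusters held 10.4% and 4.72% of Tac1, 2.34% and 3.39% of Pnoc, and 6.98% and 6.68% of Trh.

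Microglia- or macrophage-like cells, led by Csf1r, C1qa and Cx3cr1, were at 873 CPM of Penk in the control and 1348 CPM in the KO section. Their level differed with place in both sections. In the non-neural place they were at 1325 CPM (1006 to 1713, 707 cells) and 2029 CPM (1821 to 2254, 979 cells). In the pallial and striatal places together 1 Penk transcript was found in 148 control cells, or 186 CPM (4.72 to 1038). In the control these places were therefore not separated from the non-neural place beyond counting error. The 319 KO cells there held 24, which is 569 CPM (365 to 846). In the germinal place the control cells were at 240 CPM (77.8 to 559, 344 cells, 5 transcripts), an interval below that of the non-neural place. The KO cells of the germinal place were at 518 CPM (370 to 705, 488 cells). The unnamed vascular cluster led by Cldn5, Flt1 and Aplnr showed the same order, with 746 and 1798 CPM in the non-neural place against 101 and 201 CPM in the pallial and striatal places. What the surrounding Penk-rich cells contribute to these counts was not tested.

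Among neurons, Penk was at 844 CPM in the striatal cluster of the control (726 to 977) and 848 CPM in that of the KO section (803 to 896). The hypothalamic- or ventral forebrain-like cluster, led by Irs4, Calcr and Baiap3, was at 407 and 762 CPM, and the Sst, Elfn1 and Sertm1 cluster at 328 and 602 CPM. In the control the levels of these 2 clusters were within the range of the blanks (up to 556 and 380 CPM), and in the KO section they were above it. The unnamed cluster led by Slc18a2, Sp9 and Pou3f1, with 5 markers of indirect-pathway neurons in its top 10, went the other way between the sections, at 569 CPM in the control (426 to 745) and 295 CPM in the KO section (257 to 337). The highest blanks there were at 548 and 347 CPM, so the KO level was within their range and the control level just above it. Its cells in the striatal place were at 1011 CPM (722 to 1376) and 434 CPM (367 to 509). At the resolution of 1.2 the indirect-pathway-like cluster was at 919 CPM of Penk in the control (692 to 1196) and 589 CPM in the KO section (523 to 661). The Rxrg and Brs3 cluster of that resolution was higher, at 1259 and 1119 CPM, and the Ebf1, Oprm1 and Foxp1 cluster lower, at 388 and 325 CPM. Deep-layer and upper-layer projection neuron-like cells lay between 76.0 and 154 CPM, within the range of the blanks. Single KO cells with at least 5 Penk transcripts numbered 309, of which 177 were mesenchymal- or meningeal-like and 38 were in the striatal cluster.

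Pnoc was highest in neuronal clusters. The cluster led by Onecut2, Trpc4 and Sp8 was at 2845 CPM in the control (2485 to 3242, 2155 cells) and 4116 CPM in the KO section (3969 to 4268, 4767 cells). Its markers gave it the name CGE or LGE interneuron-like, but 84.7% of its control and 86.7% of its KO cells lay in the other subcortical place. Other cells were at 452 and 518 CPM, a fold of 6.29 and 7.95. The hypothalamic- or ventral forebrain-like cluster followed at 1965 and 2718 CPM. In the control section this cluster, with more cells, held the larger part of Pnoc (32.0% against 18.2%), and in the KO section the Onecut2 cluster did (31.0% against 25.3%). The cholinergic-gene cluster was at 1172 and 934 CPM and the Sst, Elfn1 and Sertm1 cluster at 823 and 1127 CPM. Cortical tissue held Pnoc too. The pallial place had 10.7% of the control and 13.1% of the KO transcripts, with 20.4% and 26.7% of the cells. Its level in the KO section was above the highest blank there (290.3 CPM), while in the control it was not (460.0 CPM). Cells of the Sst, Elfn1 and Sertm1 cluster in the pallial place were at 771 CPM in the control (353 to 1464, 258 cells, 9 transcripts). In the KO section they were at 1606 CPM (1269 to 2004, 272 cells, 78 transcripts), and the intervals of the sections overlapped. In mesenchymal- or meningeal-like cells Pnoc was at 40.9 and 104 CPM, within the range of the blanks.

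Trh was highest in the hypothalamic- or ventral forebrain-like cluster, at 665 CPM in the control (557 to 787, 134 transcripts) and 1413 CPM in the KO section (1335 to 1493, 1249 transcripts). Other cells were at 146 and 172 CPM, a fold of 4.54 and 8.22. Their levels were within the range of the blanks of the sections (up to 262 and 239.9 CPM), so the size of these folds is uncertain. This cluster held 30.2% and 36.8% of Trh transcripts. It held 55 of the 61 KO cells with at least 5 Trh transcripts, and the 1 such cell of the control section. In the striatal cluster Trh was at 345 and 293 CPM, and in deep-layer projection neuron-like cells at 254 and 324 CPM. Apart from the striatal cluster of the control, where the highest blank was at 298.5 CPM, these levels were within the range of the blanks. Upper-layer projection neuron-like cells were lower, at 97.7 and 66.9 CPM.

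The cortical band of Trh was followed by distance from the non-neural place, in the pallial place only. The band had been seen on the map of the KO section, so the zones describe it and are no test. In the KO section Trh was at 131 CPM (96.7 to 173) up to 100 µm from it, 158 CPM (134 to 185) from 100 to 200 µm, 324 CPM (288 to 364) from 200 to 300 µm, and 183 CPM (159 to 209) further in. The interval of the 200 to 300 µm zone lay above those of all other zones. The highest blank in that zone was at 278.5 CPM, just below the Trh interval, and the levels of the other zones were within the range of the blanks (up to between 330.0 and 421 CPM). Tac1, Penk and Pnoc had no such step there: Pnoc, for example, was at 363, 361 and 373 CPM from 100 µm inward. In the control section Trh was at 343 CPM (177 to 600, 12 transcripts) up to 100 µm, 163 CPM (93.0 to 264) from 100 to 200 µm, 121 CPM (62.6 to 212, 12 transcripts) from 200 to 300 µm and 249 CPM (182 to 331, 46 transcripts) further in, all within the range of the blanks. In the control the 200 to 300 µm zone had the lowest value, and its interval lay below that of the same KO zone. The zones need not cover the same part of the cortex: 5416 of 11243 control and 10198 of 26997 KO cells of the pallial place lay further in. Deep-layer projection neuron-like cells of that place were at 259.5 CPM (187 to 351) and 323.5 CPM (290 to 359), intervals that overlap. A control band at another depth therefore cannot be told from an absent one.

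**Figure D3:**
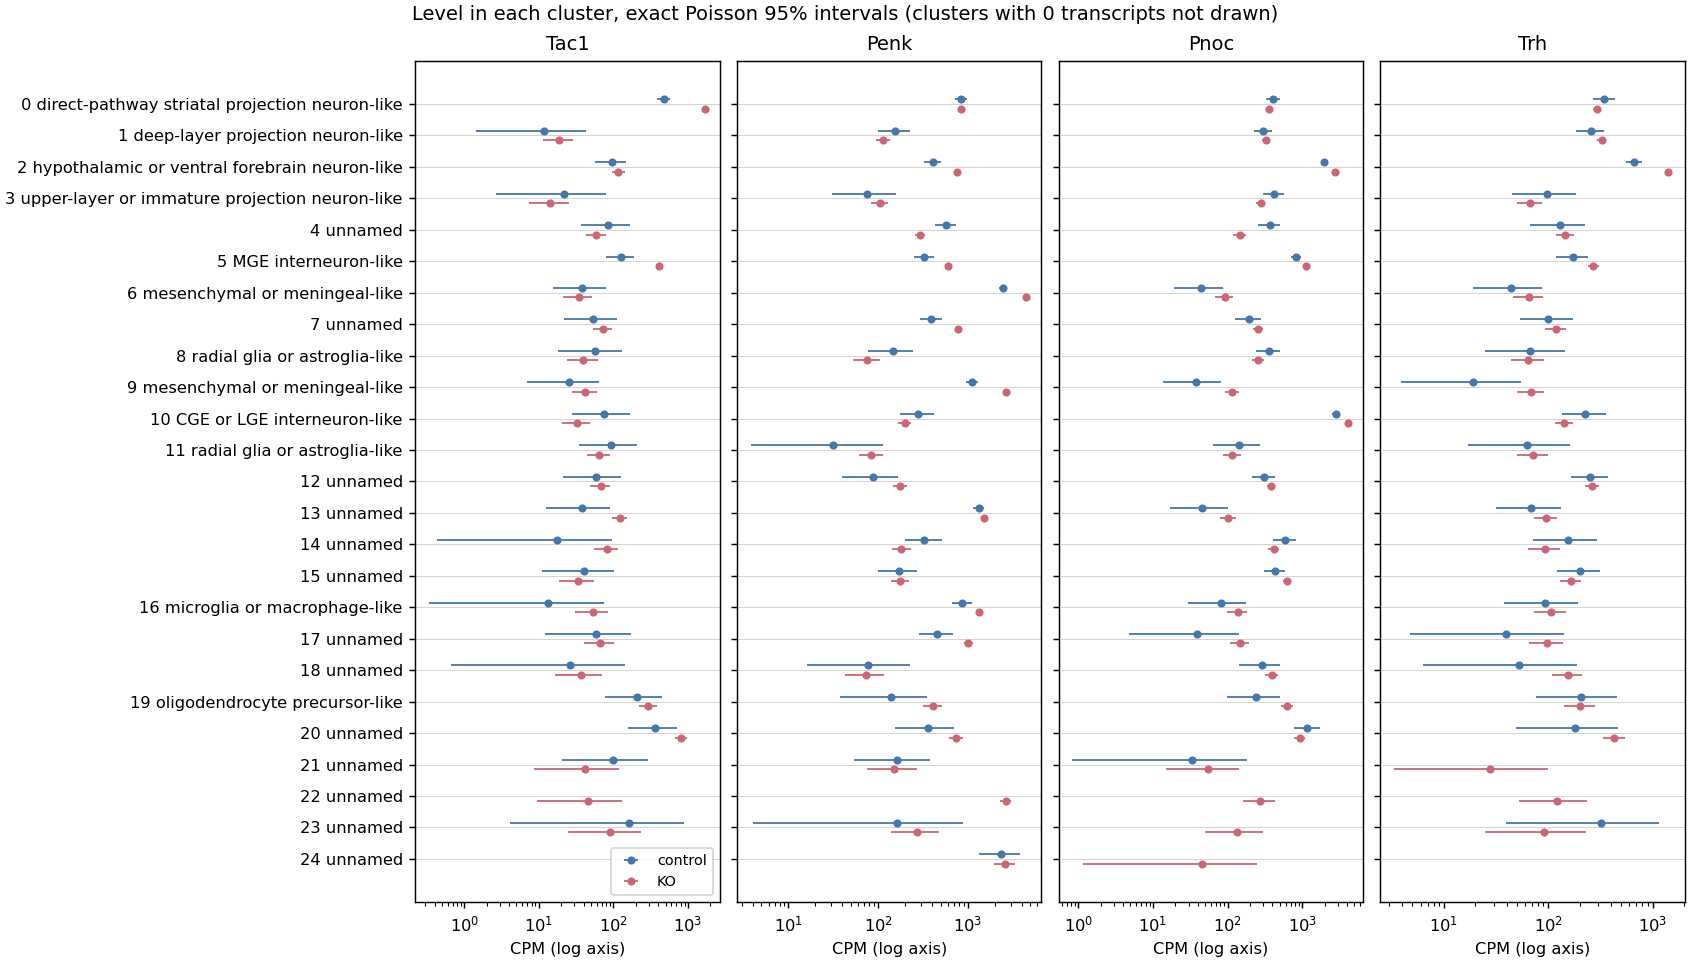
Level (CPM, log axis) of each gene in the 25 clusters of the control (blue) and KO (red) section, each cluster given by its number and by its class where it has one, with exact Poisson 95% intervals. Tac1 is highest in cluster 0, the striatal cluster, Penk is high across clusters 6, 9, 13, 16 and 24, and Pnoc and Trh are high in cluster 2, with Pnoc highest in cluster 10, the Onecut2 cluster.

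Overlap between the genes was counted in cells after each cell had been thinned at random to 25 transcripts, so that cells of both sections had the same depth. In the control section 115 of 43884 thinned cells had Tac1, 593 had Penk and 0 had both, where the product of the shares gave 1.55. In the KO section 540 of 99572 cells had Tac1, 1628 had Penk and 8 had both, against a product of 8.83. The overlap was 1.48% of the cells with Tac1 and 0.491% of those with Penk. Pnoc and Trh shared 13 KO cells, 0.818% of those with Pnoc and 2.41% of those with Trh, against a product of 8.61. These counts of shared cells were all within counting error of their products.

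The KO section was deep enough to be thinned to 100 transcripts as well, a depth chosen after the data had been seen. In the striatal cluster 832 of 6424 such cells had Tac1 and 433 had Penk. Both were seen in 45 cells, 5.41% of those with Tac1 and 10.4% of those with Penk, at 0.802 times the product of the shares (interval 0.585 to 1.07, which includes 1). The data at this depth do not separate Tac1 and Penk cells from an independent mix. Sparse counts and merged neighbouring cells limit what such overlap can show. In the striatal place of the KO section, oligodendrocyte precursor-like cells also held Tac1 at 661 CPM and Penk at 706 CPM. The Cldn5 cluster held them at 436.5 and 366 CPM there. What neighbouring cells contribute to the overlap was not tested. The product takes the cluster as 1 mix, although both genes were higher in its Rxrg and Brs3 part than in its Ebf1 part.

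The partners of the genes in the same striatal cells did differ. Of cells with Tac1, 47.8% had Drd1 (44.4 to 51.3) and 31.1% had Pdyn, the gene of the dynorphin precursor (28.0 to 34.4), against 36.1% and 18.5% of all cells of the cluster. For Drd2 the share was 30.5% against 35.1%, and for Adora2a 16.0% against 19.0%. Of cells with Penk, 68.1% had Drd2 (63.5 to 72.5) and 44.1% had Adora2a (39.4 to 48.9). For Drd1 it was 33.3% and for Pdyn 16.9%, near the shares of all cells. In the control section, at 25 transcripts, 23 of 87 cells with Penk had Drd2 and 25 had Adora2a, 2.07 and 3.19 times the product of the shares. There 10 of 58 cells with Tac1 had Drd1, 1.44 times the product with an interval of 0.691 to 2.65. All of these intervals treat cells of 1 section as independent.

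**Figure D4:**
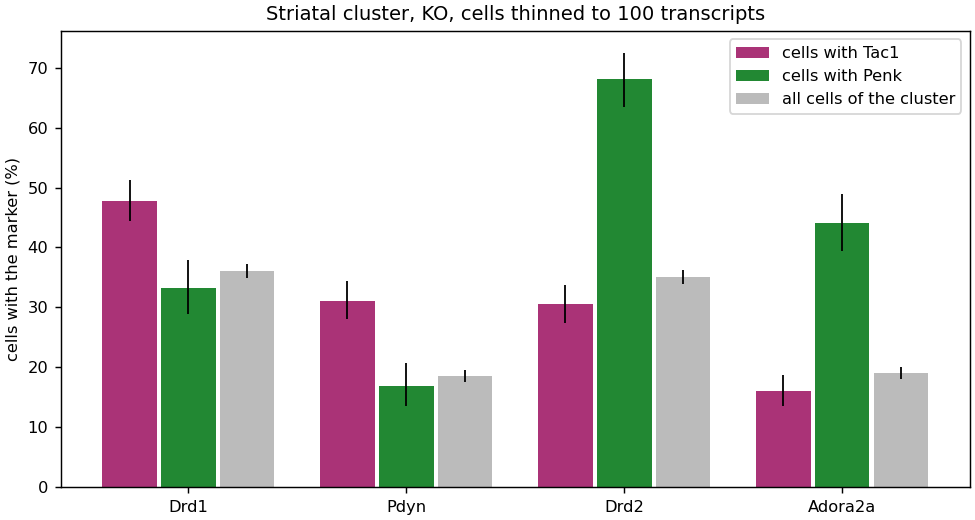
Share of striatal-cluster cells of the KO section (%, cells thinned to 100 transcripts) that had Drd1, Pdyn, Drd2 or Adora2a, among cells with Tac1, cells with Penk and all cells of the cluster, with exact binomial 95% intervals. Drd1 and Pdyn are most frequent beside Tac1, and Drd2 and Adora2a beside Penk.

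In the hypothalamic- or ventral forebrain-like cluster of the KO section, thinned in the same way, 342 of 3750 cells had Trh. Of these, 44.2% (38.8 to 49.6) had Slc17a6, the vesicular glutamate transporter of subcortical neurons, against 30.5% of all cells of the cluster. For Gad2, a GABA synthesis enzyme, it was 41.8% (36.5 to 47.2) against 54.2%. Pnoc differed from Trh in this: its cells had Gad2 in 59.8% (56.5 to 63.1), above the cluster as a whole, and Slc17a6 in 28.8% (25.8 to 31.9), an interval that includes the share of the cluster. Both Pnoc and Trh were seen in 65 cells, 7.45% of those with Pnoc and 19.0% of those with Trh, against a product of 79.6. The difference was within counting error.

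Of the receptors of these peptides, 7 of the 9 listed were on the panel, and none of the 11 listed genes of precursor processing. Over the whole section 3 of these 7 (control) and 4 (KO) lay at or under the highest blank barcode, Oprd1 and Trhr among them. Oprm1, the mu opioid receptor, was highest in the striatal cluster, at 3064 CPM in the control and 4182 CPM in the KO section. Tacr1, the receptor of substance P, was highest in the cholinergic-gene cluster, at 8477 and 5476 CPM, where Oprd1, the delta opioid receptor, also peaked at 1984 and 1514 CPM. Oprl1, the nociceptin receptor, was the most abundant receptor, at 2922 and 2683 CPM over the section. It was highest in the hypothalamic- or ventral forebrain-like cluster, at 7650 and 6944 CPM, and stood at 6448 and 6309 CPM in the Onecut2 cluster and at 6003 and 4373 CPM in the striatal cluster. In mesenchymal- or meningeal-like cells, which held the largest part of Penk, Oprm1 was at 38 and 78.0 CPM. Trhr, the receptor of thyrotropin-releasing hormone, was highest in an unnamed cluster led by Calb2, Prokr2 and Cemip, at 467 and 1135 CPM.

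Of 37 other peptide genes listed, 23 were on the panel, and 18 of them lay at or under the highest blank barcode over the control section and 15 over the KO section. Pdyn had its highest level in the striatal cluster, at 2794 and 2525 CPM. Over the 25 clusters, with a level of log2(CPM + 10), the profile most like Tac1 was that of Dgkk in the control section (Pearson r = 0.857). For Penk it was Col14a1 in the control (0.697) and Fos in the KO section (0.838), and in the same order for Pnoc it was Pvalb (0.888) and Rab3b (0.852), and for Trh it was Cacna1i (0.849) and Gnrh1 (0.866). The clusters of a section share 1 library and differ in depth, and no first-ranked gene was shared between the sections. Penk was the member least like the rest, with r between -0.244 and 0.119 to each of the other 3, while Pnoc and Trh reached 0.696 and 0.749.

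All 4 genes had higher levels in the KO than in the control section. For Tac1 the log2 ratio over the whole section was 1.49, with an interval of 1.26 to 1.73. Since the control level was within the range of the blanks, the size of this ratio is uncertain: with the median blank subtracted from both sections it was 3.47. It was 0.36 for Penk (0.25 to 0.46), 0.41 for Pnoc (0.30 to 0.52) and 0.41 for Trh (0.23 to 0.59). The other subcortical place, where Pnoc and Trh were highest, held 24.0% of control and 19.7% of KO cells, and the part of such differences in these ratios was not tested. Among the 250 more abundant panel genes, with a mean CPM not below the median, 5.6% were at least 2-fold higher in the KO section and 2.4% at least 2-fold lower. Tac1, which is below that median, is past 2-fold, and its ratio exceeded those of 99.2% of the 250 genes. The ratios of Penk, Pnoc and Trh exceeded 68.4%, 74.0% and 74.0% of them and are within the bulk of the panel. Their direction depended on the cells used. In cells with 20 to 60 transcripts the whole-section ratio was 0.26 for Tac1, 0.21 for Penk, -0.19 for Pnoc and -0.21 for Trh, and with a minimum of 50 transcripts that of Penk was -0.035. None of the 7 receptors and none of the 23 other peptide genes was 2-fold higher or lower. Of these 23, 18 (control) and 15 (KO) lay at or under the highest blank, as did 3 and 4 of the 7 receptors. Ratios at such levels carry false decoding, so this count says little about these genes.

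Within the clusters named above, the ratio was 1.82 (1.48 to 2.17) for Tac1 in the striatal cluster, where 5.2% of 250 genes were at least 2-fold higher and 6% at least 2-fold lower. There Penk had a ratio of 0.01 (-0.28 to 0.30). In mesenchymal- or meningeal-like cells Penk had a ratio of 0.93 (0.78 to 1.09). The 250 more abundant genes in these cells had a median of 0.24 and a 95th percentile of 1.15, so Penk was within their spread. In the Onecut2 cluster Pnoc had a ratio of 0.53 (0.29 to 0.78), and in the hypothalamic- or ventral forebrain-like cluster Trh had a ratio of 1.09 (0.76 to 1.42). Both were within the spread of the genes there, with a 95th percentile of 1.30 and 1.195. In the striatal cluster the 95th percentile was 0.997, below the ratio of Tac1.

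Transcripts per cell moved with several of these ratios. In striatal-cluster cells with 20 to 60 transcripts the ratio of Tac1 was 0.42 with an interval of -0.32 to 1.14, and in those with over 60 it was 1.53 (0.91 to 2.21, from 25 control transcripts). The group with over 60 transcripts was not matched in depth. In the striatal cluster its 532 control cells held 41243 panel transcripts, and its 9449 KO cells held 1437847. For Trh in its cluster the ratios were -0.09 (-0.93 to 0.72) and 0.33 (-0.17 to 0.86), so the ratio of 1.09 over all its cells was not seen at either depth. For Pnoc in the Onecut2 cluster they were 0.50 (-0.0055 to 1.01) and 0.28 (-0.23 to 0.83), and both intervals included 0. For Penk in mesenchymal- or meningeal-like cells they were 1.08 (0.71 to 1.46) and 0.86 (0.67 to 1.05), close to that over all cells. The hemispheres of the control section also differed. In the striatal cluster Tac1 was at 758 CPM (571 to 986) on the side with a median of 17 transcripts per cell and 331 CPM (244 to 441) on the side with 24. For Tac1 both sides of the KO section were close, at 1672 and 1681 CPM. Penk in mesenchymal- or meningeal-like cells also differed between the control sides, at 2347 CPM (2081 to 2638) and 1573 CPM (1412 to 1747) in the same order. In the KO section Penk was at 3370 CPM (3248.5 to 3495) and 3808 CPM (3629 to 3994). For Pnoc and Trh in their clusters the intervals of the sides overlapped in both sections.

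**Figure D5:**
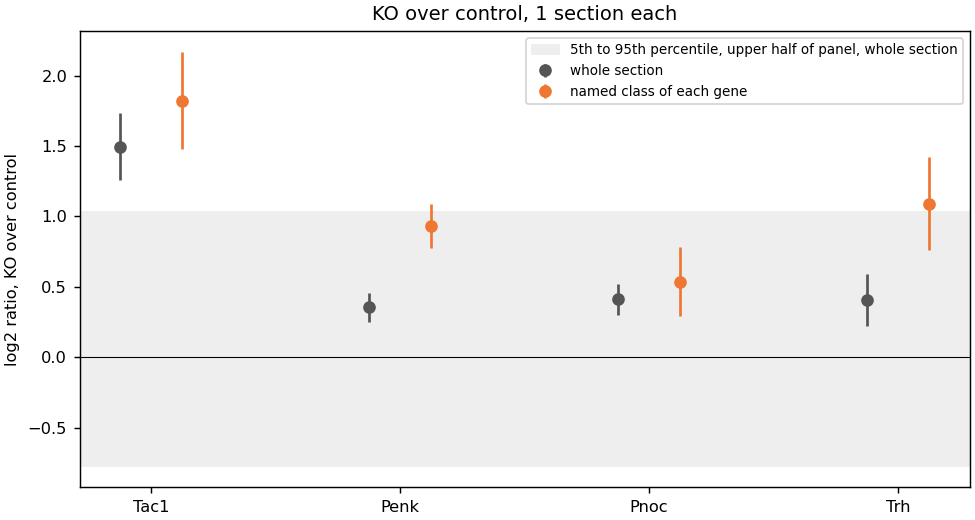
Log2 ratio of KO over control for each gene over the whole section (grey) and in the cluster or class named in the text (orange), with intervals from opposite ends of the Poisson 95% intervals. The shaded band spans the 5th to 95th percentile (-0.77 to 1.03) of the 250 more abundant panel genes over the whole section, and of the whole-section points Tac1 alone lies above it. Each cluster has its own 95th percentile, given in the text, and of the orange points only that of Tac1 exceeds it.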

How the data were processed

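Both sections were imaged on a MERSCOPE instrument, whose decoding and segmentation the authors used. The deposited tables hold raw counts of decoded molecules per cell and gene, without normalization, beside cell positions, volumes and a list of single molecules. The rule for the 4 genes used no measured value, but the genes, lists and places were chosen with earlier results of these data known.

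Cells with at least 20 panel transcripts were clustered with Seurat 5.3.0 (R 4.3.3; log normalization, reciprocal PCA, Louvain resolution 0.8) without the 4 peptide genes. Folds for naming had a pseudocount of 0.5 per 10000 transcripts. Ties, and neuronal clusters with genes of dividing progenitors in the top 10, stayed unnamed, a rule set after the clusters were seen, as was the minimum of 5 smoothed transcripts per bin. Places were smoothed with an SD of 50 µm. Other steps used pandas 2.3.3, numpy 2.4.6 and scipy 1.17.1 under Python 3.11.15. No doublet caller was run, since segmented cells are not droplets.

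With 1 section per group no test was run. Counts carry exact Poisson and shares exact binomial (Clopper-Pearson) 95% intervals. The ratio intervals were tested on simulated Poisson counts, which hold no variation between sections or cells. Thinning was tested on the KO cells, for reaching the set depth only. Named genes are the 4 members, listed receptors and peptide genes, class markers, the leading genes of each cluster, and the 3 panel genes most like each member; Drd1, Drd2, Adora2a, Pdyn, Gad2 and Slc17a6 as partners were chosen after the data were seen. Some genes that the rule names are not reported here.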

Additional observations from a re-analysis of the deposited data

How the results depend on the processing

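With 1 section per group, a value was taken to have moved where it left the counting interval of the main value. No paired analysis was possible because each group holds 1 section. The log2 ratio of KO over control moved 20 times and turned 5 times, and 11 values stayed within the interval. Per cell volume, where the whole panel shifted by 2.05, it was 3.54 for Tac1, 2.40 for Penk, 2.46 for Pnoc and 2.46 for Trh. In cells with 20 to 60 transcripts it was 0.26 for Tac1, 0.21 for Penk, -0.19 for Pnoc and -0.21 for Trh. With a minimum of 50 transcripts it was -0.035 for Penk and 0.62 for Pnoc, with no minimum 0.50 for Penk, and with all decoded molecules 0.52 for Penk. In imaging plane 0 alone it was 1.26 for Tac1, 0.56 for Penk and 0.57 for Pnoc. With the median blank subtracted it was 3.47 for Tac1 and 0.61 for Trh. Over the 4 pairings of single hemispheres it ranged from 1.04 to 1.81 for Tac1, 0.035 to 0.59 for Penk, -0.049 to 0.76 for Pnoc and -0.056 to 0.76 for Trh. The cause was not tested.

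The log2 fold of the leading class over other cells stayed above 1 for every gene, section and alternative. The leading class was chosen from these same data, so this shows how the size varies and is no test. In clustering with all panel genes the peptide genes also helped to shape the clusters. There the fold was 3.67 (control) and 4.39 (KO) for Tac1, 2.74 and 3.03 for Penk, 3.58 and 3.15 for Pnoc, and 2.62 in the control for Trh. With classes from marker counts it was 3.33 for Tac1 in the KO section, 2.59 for Penk in the KO section, and 1.10 and 2.02 for Pnoc. With a minimum of 50 it was 2.40 for Penk, 3.07 for Pnoc and 2.77 for Trh, all in the control. At resolution 1.2 it was 2.50 and 2.66 for Penk. Over single hemispheres it ranged from 1.82 to 2.59 and from 2.55 to 3.05 for Penk in the control and KO section, and from 2.37 in the control and from 2.78 to 3.21 in the KO section for Pnoc. The overlap of Tac1 and Penk in the striatal cluster of the KO section, 1.02 times the product of shares at 25 transcripts, was 0 with at least 2 transcripts of each, a setting that 0.21% of these cells met for Tac1, so that next to no double cells could be counted, between 0.323 and 1.14 with other thinning seeds and 1.53 without thinning. The share of thinned cells of the leading class with a gene can only fall when at least 2 transcripts are asked for. For Tac1 this share went from 1.29% to 0.0222% in the control and from 3.16% to 0.21% in the KO section. The share of transcripts in the leading place moved to 38.9% for Penk in the KO section with a smoothing SD of 100 µm, where 48.6% was the main value. With all decoded molecules it was 51.1% for Penk, 78.7% for Tac1 and 62.5% for Pnoc in the KO section, and 57.6% for Pnoc in the control. The blank-subtracted ratio, the 20 to 60 transcript cells, single hemispheres for the class folds and thinning to 100 were added after seeing the data. So were the zones of distance in the pallial place. Depth limits the control values of Tac1, which rest on 231 transcripts.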
